A study of Homo sapiens with 19 samples.

Results

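The genes described here code for proteins of the extracellular matrix and for the enzymes that modify collagen. They are 16 collagen chains, 7 laminin chains, the basement membrane proteins nidogen (NID1) and perlecan (HSPG2), 4 matrix glycoproteins (FN1, THBS1, THBS2 and POSTN), 4 proteoglycans (VCAN, BGN, LUM and DCN), 3 crosslinking lysyl oxidases (LOX, LOXL1 and LOXL2) and 3 collagen hydroxylases (PLOD1, PLOD2 and P4HA2). The list of 39 genes was given by name, and a gene was read from the array probe sets annotated to it alone. Of the 39, 37 had 1 or more such probe sets (93 in all) and 34 lay above a filter on dim signals and were tested, among 9540 genes tested in all. COL12A1 and LAMA3 were not analysed here, and COL5A2, COL9A3 and LUM were too dim to test.

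Messenger RNA had been measured on 19 arrays, each of 1 human breast cancer line: the parental line MDA-MB-231, grown from a pleural effusion and widely used as a model without estrogen and progesterone receptors, and lines derived from it. The weakly bone-metastatic lines were 2293, 2295 and 2296 (named 2297 in another label), the strongly bone-metastatic lines 1833, 2274, 2268 and 2269, the weakly lung-metastatic lines SCP21, SCP6 and SCP26, and the strongly lung-metastatic lines 4142, 4173, 4175 and 4180. Values for these 4 groups are always listed in those orders. Both 1833 and 4175 were also represented by 2 sublines named for their ploidy, modal-ploid and hyper-ploid. The labels call some lines fusion variants without saying which. They give DMEM with fetal bovine serum, antibiotics and selective drugs that are not named by line, and RNA taken below confluence. The metastatic lines named 1833 and 4175 are the original sublines after short culture. Each line had 1 array, so spread between lines cannot be told from spread between cultures or arrays. A p-value for strong against weak lines rests on the spread within all 4 groups together and on a prior spread estimated over all genes. For the ploidy sublines it rests on how far the 2 pairs disagree and on such a prior. An array of a whole culture cannot tell fewer cells with a transcript from less of it per cell.

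Collagens are trimers of chains that wind into a triple helix. Types I, III and V form fibrils, type IV is the network collagen of basement membranes, type VI makes beaded filaments around cells from the products of COL6A1, COL6A2 and COL6A3, and type VII anchors epithelium to the tissue beneath. Laminins are trimers of an alpha, a beta and a gamma chain and are the main adhesive proteins of basement membranes. Hydroxylases modify prolines and lysines of collagen inside the cell, and lysyl oxidases then crosslink the fibres outside it. In breast cancer this matrix is made by stromal cells and by tumour cells, and the arrays here read the tumour cells in culture.

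Upstream sequences are shown for 6 genes whose values are described further on. COL4A1 and COL4A2 are transcribed away from each other from neighbouring start sites, COL6A2 and COL6A3 code for partners in collagen VI, and FN1 and THBS1 are the glycoproteins that differed most between bone lines. The set of RefSeq (GRCh38.p14) promoters used here matched 29 of the 39 genes. The interval between both collagen IV starts is chr13:110307158-110307283 (126 bases, plus strand, the direction of COL4A2). The others are the 250 bases before the start of COL6A2 (chr21:46097862-46098111, plus strand), COL6A3 (chr2:237414165-237414414, minus strand), FN1 (chr2:215436069-215436318, minus strand) and THBS1 (chr15:39580829-39581078, plus strand), each on its gene's strand from 5′ to 3′. Capitals mark matches on either strand to the GC box GGGCGG, the CCAAT box CCAAT, the TATA box TATAAA, the cyclic AMP response element TGACGTCA or the AP-1 site TGANTCA.
COL4A1 and COL4A2: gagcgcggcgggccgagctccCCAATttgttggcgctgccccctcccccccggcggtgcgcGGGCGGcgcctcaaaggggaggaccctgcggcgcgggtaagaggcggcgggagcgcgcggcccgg
COL6A2: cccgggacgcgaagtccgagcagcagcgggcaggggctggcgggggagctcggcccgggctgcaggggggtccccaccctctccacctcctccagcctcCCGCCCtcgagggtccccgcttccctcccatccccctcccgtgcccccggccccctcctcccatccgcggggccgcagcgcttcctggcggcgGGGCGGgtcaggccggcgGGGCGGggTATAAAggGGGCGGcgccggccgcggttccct
COL6A3: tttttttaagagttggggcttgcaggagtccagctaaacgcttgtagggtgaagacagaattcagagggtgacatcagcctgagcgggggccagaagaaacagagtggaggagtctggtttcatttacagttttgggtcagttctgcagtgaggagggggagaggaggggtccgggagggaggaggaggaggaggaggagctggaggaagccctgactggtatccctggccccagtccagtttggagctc
FN1: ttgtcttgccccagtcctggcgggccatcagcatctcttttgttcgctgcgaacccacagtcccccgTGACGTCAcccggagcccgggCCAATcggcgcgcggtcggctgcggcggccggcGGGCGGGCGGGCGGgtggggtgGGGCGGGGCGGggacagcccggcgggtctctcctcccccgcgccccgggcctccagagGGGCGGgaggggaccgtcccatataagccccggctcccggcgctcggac
THBS1: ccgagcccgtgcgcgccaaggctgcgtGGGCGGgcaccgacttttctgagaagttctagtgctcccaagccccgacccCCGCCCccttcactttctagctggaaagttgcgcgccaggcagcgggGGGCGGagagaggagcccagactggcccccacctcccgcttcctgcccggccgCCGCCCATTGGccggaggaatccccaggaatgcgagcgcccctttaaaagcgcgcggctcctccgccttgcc

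The collagen IV interval held 1 GC box and 1 CCAAT box, which were found in 34.5% and 21.1% of all promoters of that set over the 126 bases before the start. COL6A2 had 4 GC boxes and 1 TATA box and COL6A3 none of the 5 motifs, so these partners of a trimer shared none of them in this window. FN1 had 6 GC boxes, some overlapping, 1 CCAAT box and 1 cyclic AMP response element, and THBS1 had 4 GC boxes and 1 CCAAT box that borders the last of them. Over 250 bases, 42.5% of the 34943 promoters held the GC box, 32.0% the CCAAT box, 10.8% the TATA box, 1.63% the cyclic AMP response element and 6.59% the AP-1 site. A match describes the letters only.

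The deposited values were ratios in 2 sets of arrays, the parental line, bone lines and 1833 ploidy pair in the first and the lung lines and 4175 ploidy pair in the second, and no level was compared across them. The ratios were turned back into signals (arbitrary brightness units), which were scaled to an array median of 143.5. The 40th percentile of an array, at or below which a signal is called dim here, then lay between 71.8 and 94.4. A difference is strong minus weak on the log2(signal + 16) scale, from limma fitted to the 14 lines of these 4 groups over 9540 genes, with Benjamini-Hochberg adjustment and a threshold of 0.05. The mean over biotin spike-in controls was 11.5 to 11.7 (log2) in weak and 11.3 to 11.7 in strong bone lines, and 10.2 to 10.8 in weak and 10.5 to 11.0 in strong lung lines. The log2 ratio of 3′ to 5′ ACTB signal, a measure of RNA integrity, was -0.21 to 0.0442, -0.41 to -0.0702, 0.0846 to 0.401 and -0.00836 to 0.186 in the same order. Both thus overlapped between the groups compared. The epithelial keratins KRT8 and KRT18 and the mesenchymal VIM and CD44 were above the 40th percentile on all 19 arrays, PGR on 0 and CDH1 on 1. KRT7, KRT19, EPCAM and FN1 were also above the percentile on all 19, with signals of 265 to 5067 for KRT19 and 104.2 to 353.5 for EPCAM. Some markers of these lists varied between lines. SPARC, a collagen-binding matrix protein listed as mesenchymal, was above the percentile on 6 arrays (signals 3.35 to 3864). It differed by 6.72 (SE 0.43, adjusted p = 3.0e-06) in lung and 0.25 (SE 0.43, adjusted p = 0.764) in bone lines. The keratin KRT7 differed by -1.77 (SE 0.28, adjusted p = 0.00161) in bone and -0.05 (SE 0.28, adjusted p = 0.949) in lung lines. The part of both in the matrix results was not tested. HER2 transcript (ERBB2) was above it on 19 and ESR1 on 16, at signals of at most 1018 and 177.

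Between strong and weak bone lines, 7 of the 34 tested matrix genes passed the threshold, where 11.6% of all genes did. COL8A1, LAMB2, THBS1 and LOX were higher (4 of 34, against 6.8% of all genes) and COL6A3, COL7A1 and FN1 lower (3 of 34, against 4.81%). Between strong and weak lung lines 10 of 34 passed, where 8.83% of all genes did. COL1A1, COL6A1, COL6A2, COL6A3, COL7A1, COL13A1, LAMA4 and LAMA5 were higher (8 of 34, against 3.34%) and COL4A2 and COL8A1 lower (2 of 34, against 5.48%). The median difference over the 34 was -0.08 in bone and 0.12 in lung lines, and over all genes 0.01 and -0.01. For 9 of 34 the bone and lung differences differed from each other, where 11.7% of all genes did (limma contrast between the differences, adjusted over all genes). The contrast was positive for 2 (6.95% of all genes) and negative for 7 (4.77%). COL6A3, COL7A1 and COL8A1 passed in both comparisons, each in opposite directions. At an unadjusted p under 0.05 stood 26.8% of all genes in bone and 23.1% in lung lines, and 14 and 14 of the 34. The genes were chosen with earlier results of these data known, so their shares are not those of an independent list.

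**Figure D1:**
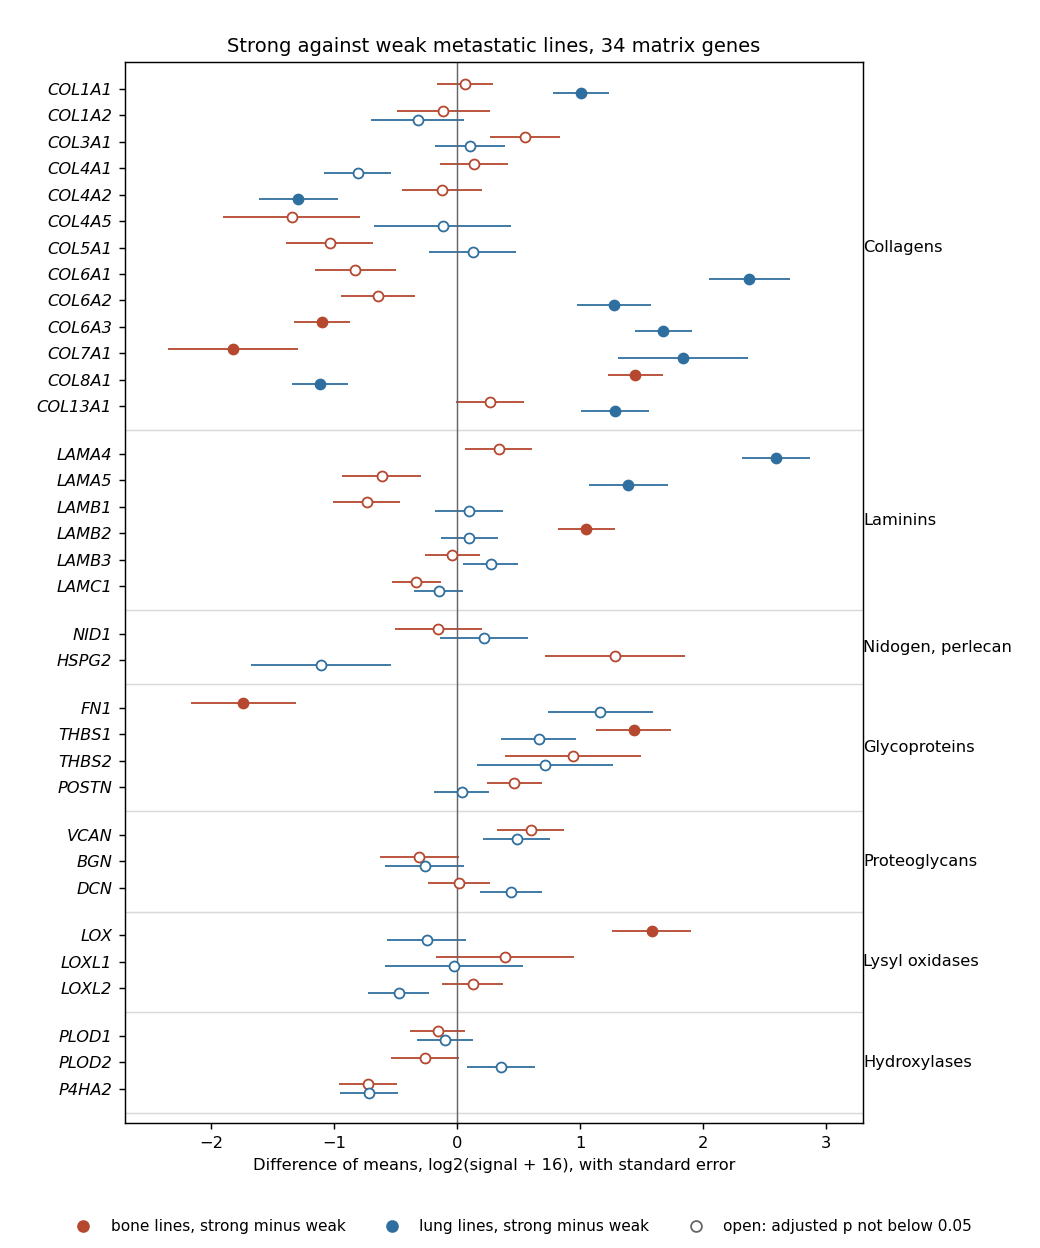
Difference between strong and weak lines for the 34 tested matrix genes, on the log2(signal + 16) scale (horizontal axis), in bone lines (red, 4 against 3) and lung lines (blue, 4 against 3). Bars are standard errors of the fit and filled points have an adjusted p below 0.05. The collagen VI chains, COL7A1 and FN1 lie left of zero in bone and right of zero in lung lines, and COL8A1 the reverse.

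Of the 13 collagens tested, 1 was higher and 2 were lower in strong bone lines, where 6.8% and 4.81% of all genes were. In strong lung lines 6 were higher and 2 lower, against 3.34% and 5.48% of all genes. The chains of collagen VI were all higher in strong lung lines. COL6A1 signals were 700.4, 1232 and 1872 in the weak and 4341, 6683, 9424 and 5244 in the strong lung lines. Every strong line was brighter than every weak line, by a log2 difference of 2.37 (SE 0.33, adjusted p = 0.000671). COL6A2, the neighbouring gene on chromosome 21, read 154, 408 and 392 in the weak and 589, 740.3, 1072 and 604 in the strong lung lines. These groups did not overlap either, SCP21 was the lowest and 4175 the highest, and the difference was 1.27 (SE 0.30, adjusted p = 0.0174). Without 4175 it missed the threshold (adjusted p = 0.0552), as it did with the 7 lung lines fitted alone (adjusted p = 0.0851). COL6A3 read 156, 162 and 138 in the weak and 599, 385, 448 and 704 in the strong lung lines. The weak lines lay close together and well below the strong lines, with a difference of 1.68 (SE 0.23, adjusted p = 0.000587).

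In bone lines the same chains lay the other way. COL6A3 signals were 1078, 1362 and 978 in the weak and 467, 405, 675 and 569 in the strong bone lines, without overlap, and the difference of -1.09 (SE 0.23, adjusted p = 0.00862) passed. COL6A1 read 2382, 2444 and 4215 in the weak and 1906, 1672, 1577 and 1403 in the strong bone lines. COL6A2 read 768, 707 and 859.6 and 459.6, 536, 582 and 405. Their weak and strong lines did not overlap, but the differences of -0.83 (SE 0.33, adjusted p = 0.123) and -0.64 (SE 0.30, adjusted p = 0.187) did not pass. Bone and lung differences were -3.20 (SE 0.47, adjusted p = 0.000687) apart for COL6A1, -1.92 (SE 0.42, adjusted p = 0.0106) for COL6A2 and -2.77 (SE 0.32, adjusted p = 0.000176) for COL6A3. Each of these held in 22 of 22 alternative settings, 14 of them with 1 line left out. Of the 5 other kept probe sets of COL6A1, 4 also passed for higher signal in strong lung lines. The remaining probe set stood at 0.08 (SE 0.43, adjusted p = 0.947). The second kept probe set of COL6A2 stood at 0.26 (SE 0.23, adjusted p = 0.553) in lung and -0.86 (SE 0.23, adjusted p = 0.0274) in bone lines.

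Of the 16 markers of leukocytes, endothelium and fibroblasts measured, 9 were bright enough to test. LAPTM5 and PECAM1 passed in both comparisons, in the directions of collagen VI, and the other 7 passed in neither. LAPTM5, a lysosomal protein of blood cells, was -1.55 (SE 0.20, adjusted p = 0.000325) in bone and 2.20 (SE 0.20, adjusted p = 3.2e-05) in lung lines. The summed signal of the 4 leukocyte markers measured was 7130 to 7502 in weak and 1990 to 3250 in strong bone lines, and 1127 to 1787 in weak and 5519 to 6356 in strong lung lines. LAPTM5 made up most of that sum, and the defining leukocyte gene PTPRC was above the 40th percentile on 0 of 19 arrays. PECAM1, an adhesion molecule of endothelium, was -1.60 (SE 0.25, adjusted p = 0.00149) in bone and 1.13 (SE 0.25, adjusted p = 0.0128) in lung lines. The other tested leukocyte markers differed in bone and lung lines by -0.79 (SE 0.46, adjusted p = 0.301) and -0.38 (SE 0.46, adjusted p = 0.678) for CD3D, and by 0.24 (SE 0.69, adjusted p = 0.867) and 0.54 (SE 0.69, adjusted p = 0.686) for CD14. The endothelial KDR differed by 0.19 (SE 0.38, adjusted p = 0.807) and -0.04 (SE 0.38, adjusted p = 0.964). The sum of the 4 endothelial markers was 413 to 672 in weak and 126 to 293 in strong bone lines, and 157 to 287 in weak and 339 to 410.3 in strong lung lines, while VWF and CDH5 were above the percentile on 0 arrays. The 8 fibroblast markers, 3 of which (LUM, DCN and COL3A1) belong to the matrix genes described here, summed to 635.5 to 756 in weak and 487 to 616 in strong bone lines, and to 488 to 790.5 in weak and 678 to 824.5 in strong lung lines, so that the lung groups overlapped. PDGFRA and FAP were above the percentile on 0 arrays and PDGFRB on 1. The part of these markers in the matrix results was not tested.

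COL7A1, the anchoring fibril collagen, had the same opposition with a wider spread. Its signals were 246, 100.2 and 236 in weak and 92.7, 23.5, 34.2 and 29 in strong bone lines. The strong line 1833 lay just under the weak line 2295, and the other strong lines were dim. The difference was -1.82 (SE 0.53, adjusted p = 0.0407). In lung lines COL7A1 read 159, 279 and 41.9 in the weak and 691, 396, 777 and 287 in the strong lines, which lay next to each other at SCP6 and 4180, with a difference of 1.83 (SE 0.53, adjusted p = 0.0469). Both calls depended on single lines. The bone call was lost without 2293 (adjusted p = 0.141), 2296 (0.134), 2274 (0.0981), 2268 (0.0835) or 2269 (0.074). The lung call was lost without SCP21 (0.071), SCP26 (0.15, difference 1.18), 4142 (0.108), 4173 (0.0759) or 4175 (0.128). Over all alternatives tried the bone call held in 9 of 16 and the lung call in 6 of 16. The contrast between bone and lung, -3.66 (SE 0.75, adjusted p = 0.00685), was called in 22 of 22 alternatives. The second probe set gave -1.12 (SE 0.58, adjusted p = 0.238) in bone, 0.86 (SE 0.58, adjusted p = 0.425) in lung and -1.99 (SE 0.82, adjusted p = 0.144) for the contrast.

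COL8A1 codes for a short-chain collagen found in the wall of blood vessels and went the other way. It read 48.1, 23.2 and 63.5 in weak and 134, 137, 178 and 129.7 in strong bone lines. All 3 weak lines were dim, all 4 strong lines were above the 40th percentile, and the difference was 1.45 (SE 0.22, adjusted p = 0.0014), at least 1.65-fold against that percentile. In lung lines it read 103, 142 and 94.2 in the weak and 47.3, 42.5, 39.4 and 42.3 in the strong lines. Here all 4 strong lines were dim, with a difference of -1.11 (SE 0.22, adjusted p = 0.00691), at least 1.22-fold down. For COL8A1 the bone and lung differences were 2.56 (SE 0.32, adjusted p = 0.00024) apart, and all 3 calls held in every alternative tried.

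**Figure D2:**
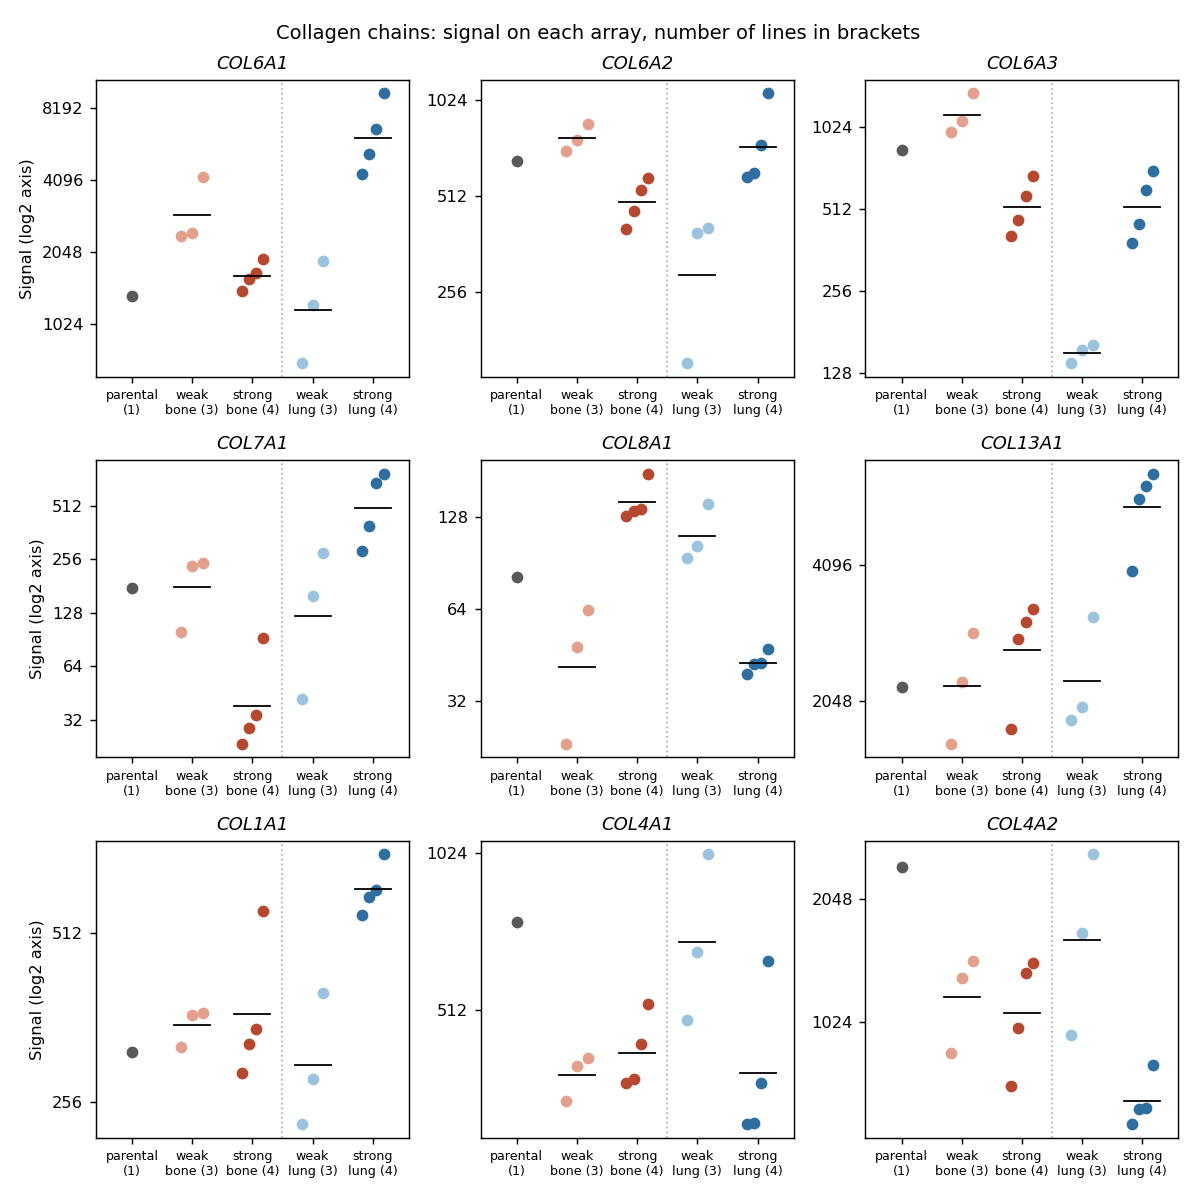
Signal of 9 collagen genes on each array (points, log2 axis, arbitrary units), for the parental line and the weak and strong bone and lung lines, with bars at the geometric mean of a group. The dotted line separates the array sets, across which levels were not compared. COL6A1, COL6A2 and COL6A3 lie lower in strong than weak bone lines and higher in strong than weak lung lines, and COL8A1 the reverse. The bone differences of COL6A1 and COL6A2 did not pass the test.

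COL13A1, a collagen that spans the cell membrane, rose in strong lung lines. It read 1986, 3137 and 1855 in the weak and 6556, 5748, 6161 and 3987 in the strong lines, without overlap, a difference of 1.28 (SE 0.28, adjusted p = 0.011). In bone lines, at 1642, 2247 and 2904 and 3060.2, 2804, 3279 and 1768, the groups overlapped and the difference was 0.27 (SE 0.28, adjusted p = 0.594). The contrast between bone and lung, -1.01 (SE 0.39, adjusted p = 0.114), did not pass. The other 2 probe sets of COL13A1 also passed in lung lines, at 1.77 (SE 0.29, adjusted p = 0.0021) and 1.60 (SE 0.38, adjusted p = 0.0193). Their contrasts were -1.54 (SE 0.41, adjusted p = 0.0274) and -1.13 (SE 0.54, adjusted p = 0.205).

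COL1A1, a chain of the main fibril collagen, rose in strong lung lines from 281, 400.4 and 233 to 708, 551, 609.9 and 593, a difference of 1.0 (SE 0.23, adjusted p = 0.014) in the probe set that stands for the gene. Its bone difference was 0.06 (SE 0.23, adjusted p = 0.9), and the contrast between bone and lung, -0.94 (SE 0.32, adjusted p = 0.0755), did not pass. A second probe set read 28, 66.2 and 44.1 in the weak lung lines and 596, 546, 881 and 978 in the strong. The weak lines were dim there and the strong lines were not, with a difference of 3.63 (SE 0.57, adjusted p = 0.00152). In that probe set the bone lines read 146, 11.3 and 108 and 11.5, 40.9, 73.2 and 102, with only 2293, 2296 and 2269 above the percentile, and a difference of -0.37 (SE 0.57, adjusted p = 0.739). Its contrast between bone and lung passed, at -4.0 (SE 0.80, adjusted p = 0.00592). The last kept probe set stood at 0.18 (SE 0.43, adjusted p = 0.854) in lung lines. COL1A2, the partner chain, did not follow. It read 152, 74.2 and 349 in weak and 100.4, 127, 148 and 131 in strong lung lines, with SCP26 the highest, and differed by -0.32 (SE 0.38, adjusted p = 0.661) there and by -0.11 (SE 0.38, adjusted p = 0.892) in bone lines. A second probe set of COL1A2 had the opposite sign in bone lines, at 0.20 (SE 0.63, adjusted p = 0.881).

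The head-to-head collagen IV genes were lower in strong lung lines, COL4A2 past the threshold and COL4A1 not. COL4A2 read 1694, 2637 and 953 in the weak and 805, 628, 631 and 575 in the strong lung lines. The strong lines lay together below all weak lines, of which SCP6 was the highest, and the difference was -1.29 (SE 0.32, adjusted p = 0.0237). The call was lost in 5 of 7 fits with 1 line left out. The adjusted p was 0.0613 without SCP21, 0.0986 without SCP6, 0.0599 without 4173, 0.0607 without 4175 and 0.0575 without 4180. COL4A1 read 662, 1020.0 and 491 and 637, 309.8, 312 and 372, with the strong line 4142 inside the weak range, and differed by -0.81 (SE 0.27, adjusted p = 0.0867). COL4A1 passed without SCP26 (adjusted p = 0.0348) or 4142 (0.0222). The other probe set of COL4A2 stood at -1.07 (SE 0.37, adjusted p = 0.0972). In bone lines the differences were -0.12 (SE 0.32, adjusted p = 0.857) for COL4A2 and 0.14 (SE 0.27, adjusted p = 0.805) for COL4A1. The contrasts between bone and lung, 1.17 (SE 0.46, adjusted p = 0.12) for COL4A2 and 0.94 (SE 0.39, adjusted p = 0.135) for COL4A1, did not pass.

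A second probe set of COL4A1 behaved otherwise in bone lines. It read 46.9, 29.9 and 52.2 in weak and 256, 194, 355 and 49.6 in strong bone lines, so that 3 strong lines were bright and 2269 was as dim as the weak lines. In lung lines it read 147, 435 and 29.3 in the weak and 33.5, 35, 28.9 and 32.4 in the strong, with only SCP21 and SCP6 bright. Its differences were 1.73 (SE 0.64, adjusted p = 0.0982) in bone, -1.62 (SE 0.64, adjusted p = 0.144) in lung and 3.35 (SE 0.90, adjusted p = 0.0291) between them. COL4A5, a chain with a more restricted distribution, read 52, 24.4 and 198 in weak and 14, 38.6, 9.5 and 12.5 in strong bone lines, where all strong lines were dim, and differed by -1.34 (SE 0.56, adjusted p = 0.14) in bone and -0.12 (SE 0.56, adjusted p = 0.931) in lung lines.

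COL5A1, which helps set the width of collagen fibrils, read 632, 494 and 536 in weak and 260.4, 334, 222 and 240.4 in strong bone lines. All strong lines were below all weak lines, but the difference of -1.03 (SE 0.35, adjusted p = 0.0756) did not pass. It passed when the 7 bone lines were fitted alone (adjusted p = 0.014). In lung lines the difference was 0.13 (SE 0.35, adjusted p = 0.873), and another probe set of COL5A1 stood at -0.62 (SE 0.40, adjusted p = 0.402). COL5A2 was above the 40th percentile on 1 of 19 arrays and COL9A3 on 0. COL3A1, a fibril collagen of soft tissue, read 43.9, 91.5 and 45.6 in weak and 108, 79.8, 113 and 71.4 in strong bone lines, near the percentile, and differed by 0.55 (SE 0.28, adjusted p = 0.229).

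Of the 6 laminin chains tested, 1 was higher in strong bone lines (6.8% of all genes) and 2 in strong lung lines (3.34%), and 0 were lower in either (limma; 4.81% and 5.48%). At an unadjusted p under 0.05 there were 2 of 6 in bone and 2 in lung lines, in either direction, where 26.8% and 23.1% of all genes were. LAMA4, the alpha chain of vascular and mesenchymal basement membranes, read 49.6, 14 and 35.6 in weak and 219, 254, 295 and 300.3 in strong lung lines. All 3 weak lines were dim and all 4 strong lines above the percentile, with a difference of 2.59 (SE 0.27, adjusted p = 0.000126), at least 3.10-fold. In bone lines, at 164, 85.8 and 109 and 115, 192, 171 and 136, the groups overlapped and the difference was 0.34 (SE 0.27, adjusted p = 0.475). The bone difference lay -2.25 (SE 0.39, adjusted p = 0.00224) from the lung difference. A further probe set read 22.1, 20.5 and 36.3 in weak and 145, 135, 181 and 19 in strong bone lines, so that 3 strong lines were bright and 2269 was dim, a difference of 1.45 (SE 0.44, adjusted p = 0.0503). It was dim in all lung lines, and the last kept probe set stood at 0.09 (SE 0.24, adjusted p = 0.879) there. With all kept LAMA4 probe sets averaged, the contrast between bone and lung was -0.27 (adjusted p = 0.59).

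LAMA5, the alpha chain of most epithelial basement membranes, read 474, 499 and 594 in weak and 1032, 1712, 1859 and 1126 in strong lung lines. The strong lines were all above the weak lines, by 1.39 (SE 0.32, adjusted p = 0.0158), and without 4175 the adjusted p was 0.0527. In bone lines it read 361, 854 and 1051 and 544, 386, 513 and 363, with 2293 the lowest of all 7, a difference of -0.61 (SE 0.32, adjusted p = 0.242). Without 2293 it passed (adjusted p = 0.0378). The bone and lung differences were -2.0 (SE 0.46, adjusted p = 0.0122) apart.

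LAMB2 read 370.1, 347 and 369 in weak and 846, 754, 1021 and 530.2 in strong bone lines. The weak lines were nearly alike and below every strong line, a difference of 1.05 (SE 0.23, adjusted p = 0.0116) that held with each line left out. In lung lines it was 0.10 (SE 0.23, adjusted p = 0.847). The bone and lung differences of LAMB2 were not shown to differ, at 0.95 (SE 0.33, adjusted p = 0.0783). LAMB1, which takes the same place in the trimer, read 347, 263 and 399 in weak and 254, 152, 155 and 229 in strong bone lines, lower without overlap, but its difference of -0.73 (SE 0.27, adjusted p = 0.1) did not pass. Its second probe set did, at -1.23 (SE 0.26, adjusted p = 0.00994). LAMB3, part of the laminin of epithelial anchorage, read 3232 to 4284 in the bone lines and 2117 to 4403 in the lung lines, and its differences were -0.04 (SE 0.22, adjusted p = 0.939) in bone and 0.27 (SE 0.22, adjusted p = 0.51) in lung lines. LAMC1, the common gamma chain, read 951 to 1505 in the bone lines and 1349.5 to 2362 in the lung lines. It differed by -0.33 (SE 0.20, adjusted p = 0.315) and -0.15 (SE 0.20, adjusted p = 0.705), and its second probe set had the opposite sign in bone lines, at 0.36 (SE 0.21, adjusted p = 0.305).

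**Figure D3:**
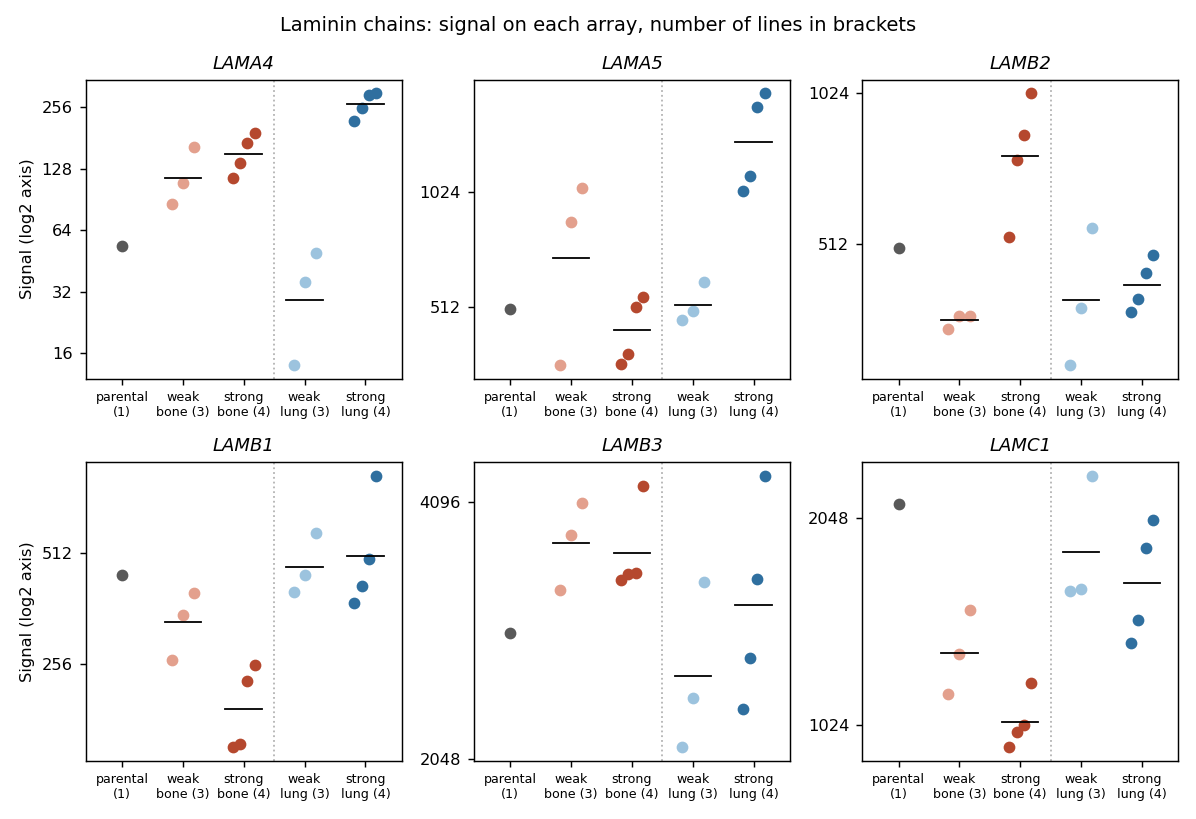
Signal of 6 laminin chains on each array (points, log2 axis, arbitrary units), for the parental line and the weak and strong lines, with bars at the geometric mean of a group and a dotted line between the array sets. LAMA4 and LAMA5 are higher in strong than weak lung lines and LAMB2 is higher in strong than weak bone lines, while LAMB3 and LAMC1 overlap between the groups.

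The proteins that join laminin to collagen IV did not pass in either comparison (limma). At an unadjusted p under 0.05 there were 1 of 2 in bone and 0 in lung lines (26.8% and 23.1% of all genes). NID1 read 29.4 to 93 in the bone lines and 23.3 to 91.9 in the lung lines, above the percentile on 3 of 19 arrays, and differed by -0.15 (SE 0.35, adjusted p = 0.836) in bone and 0.22 (SE 0.35, adjusted p = 0.768) in lung lines. HSPG2 read 25.5, 12.3 and 24.3 in weak and 29.6, 111, 226 and 26.7 in strong bone lines, where only 2274 and 2268 stood out, and 63, 209 and 132 in weak and 54.8, 80.4, 64.1 and 14.8 in strong lung lines. Its differences were 1.28 (SE 0.57, adjusted p = 0.168) and -1.11 (SE 0.57, adjusted p = 0.264), and their contrast was 2.39 (SE 0.81, adjusted p = 0.0713).

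Of the 4 glycoproteins, FN1 fell and THBS1 rose in strong bone lines, where 4.81% of all genes fell and 6.8% rose (limma). In lung lines 0 passed, with 2 at an unadjusted p under 0.05, against 23.1% of all genes. FN1, fibronectin, the main adhesive glycoprotein of connective tissue, read 4418, 6405 and 5005 in weak and 2080.4, 1452, 1913 and 999.9 in strong bone lines. The strong lines were all below the weak lines and 2269 was the lowest, with a difference of -1.74 (SE 0.43, adjusted p = 0.0185). The call was lost without 2295 (adjusted p = 0.0767) or 2296 (0.0552). In lung lines FN1 read 362, 2058 and 885 in the weak and 2323, 1823, 2135 and 1689.9 in the strong lines, and SCP6 lay within the strong range, with a difference of 1.16 (SE 0.43, adjusted p = 0.116). That difference passed without SCP6 (1.77, adjusted p = 0.00988) and under quantile normalisation (0.0401). The bone and lung differences of FN1 were -2.90 (SE 0.60, adjusted p = 0.00739) apart, called in 22 of 22 alternatives. Of its 4 other probe sets 3 also passed in bone lines, at -2.0 (SE 0.45, adjusted p = 0.0132), -2.17 (SE 0.55, adjusted p = 0.0216) and -1.73 (SE 0.38, adjusted p = 0.0114), and the last stood at -0.65 (SE 0.22, adjusted p = 0.07).

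THBS1, the adhesion-modulating thrombospondin, read 734, 627 and 664 in weak and 2357, 2363, 1825 and 1144 in strong bone lines. The weak lines were close together below all strong lines, and the difference was 1.43 (SE 0.31, adjusted p = 0.01). Of its 4 other probe sets 2 also passed, at 1.59 (SE 0.42, adjusted p = 0.0268) and 1.24 (SE 0.32, adjusted p = 0.0231). The remaining pair stood at 0.53 (SE 0.39, adjusted p = 0.432) and -0.26 (SE 0.29, adjusted p = 0.622). In lung lines THBS1 read 467, 662 and 996 in the weak and 1660.0, 822, 1066 and 933 in the strong, with overlap, a difference of 0.66 (SE 0.31, adjusted p = 0.214). Other probe sets had the opposite sign there, at -0.14 (SE 0.42, adjusted p = 0.884) and -0.10 (SE 0.29, adjusted p = 0.876). The bone and lung differences of THBS1 were not shown to differ, at 0.77 (SE 0.43, adjusted p = 0.284). THBS2, a thrombospondin of connective tissue, read 6 to 127 in the bone lines and 21.1 to 141 in the lung lines and differed by 0.94 (SE 0.55, adjusted p = 0.3) and 0.71 (SE 0.55, adjusted p = 0.48). POSTN, periostin, a matrix protein of bone lining and stroma, read 46.6 to 106 in the bone lines and 38.4 to 85.6 in the lung lines and differed by 0.46 (SE 0.22, adjusted p = 0.199) and 0.04 (SE 0.22, adjusted p = 0.947). THBS2 was above the percentile on 6 and POSTN on 3 of 19 arrays.

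Of the 3 proteoglycans tested 0 passed (limma). At an unadjusted p under 0.05 there were 1 in bone and 0 in lung lines (26.8% and 23.1% of all genes). VCAN, the large hyaluronan-binding proteoglycan, read 18.3 to 83.5 in the bone lines and 59.4 to 123 in the lung lines, above the percentile on 5 of 19 arrays, and differed by 0.60 (SE 0.27, adjusted p = 0.175) in bone and 0.48 (SE 0.27, adjusted p = 0.311) in lung lines. BGN, biglycan, read 63.3 to 197 in the bone lines and 71.8 to 149 in the lung lines and differed by -0.31 (SE 0.32, adjusted p = 0.595) and -0.26 (SE 0.32, adjusted p = 0.674). DCN, decorin, which binds collagen fibrils, was above the percentile on all 19 arrays at 90.2 to 191 in the bone lines and 134 to 272 in the lung lines. It differed by 0.02 (SE 0.25, adjusted p = 0.973) and 0.44 (SE 0.25, adjusted p = 0.326). LUM, lumican, was above the percentile on 0 of 19 arrays.

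Of the 6 enzymes 1 passed in bone lines, LOX, where 11.6% of all genes did, and 0 in lung lines, where 8.83% did (limma). At an unadjusted p under 0.05 in lung lines stood 0 lysyl oxidases and 1 hydroxylase, against 23.1% of all genes. LOX, which oxidises lysines of collagen and elastin so that fibres crosslink, read 454, 439 and 617 in weak and 1349, 2042, 1975 and 982 in strong bone lines. All strong lines were brighter, with 2274 and 2268 the highest, by 1.58 (SE 0.32, adjusted p = 0.0074), and the call held with each line left out. In lung lines it read 327, 678 and 343 in the weak and 541, 328, 346 and 259.5 in the strong lines, where SCP6 was the highest, a difference of -0.25 (SE 0.32, adjusted p = 0.696). The bone and lung differences were 1.83 (SE 0.45, adjusted p = 0.0187) apart. Both other probe sets of LOX passed in bone lines as well, at 2.09 (SE 0.45, adjusted p = 0.0104) and 1.35 (SE 0.35, adjusted p = 0.0241).

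The other lysyl oxidases did not pass in either comparison. LOXL1 read 264, 244 and 201 in weak and 316, 398, 303 and 249.9 in strong bone lines and 11.2, 223 and 19.6 in weak and 76.2, 44.3, 49.7 and 20.2 in strong lung lines. SCP6 stood far above the other lung lines, and the differences were 0.39 (SE 0.56, adjusted p = 0.721) and -0.03 (SE 0.56, adjusted p = 0.988). LOXL2 was bright on every array, from 2099.7 to 6322, and differed by 0.13 (SE 0.25, adjusted p = 0.803) and -0.48 (SE 0.25, adjusted p = 0.273). Another probe set of LOXL2 had the opposite signs, at -0.39 (SE 0.43, adjusted p = 0.621) and 0.18 (SE 0.43, adjusted p = 0.851).

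The hydroxylases act on collagen before secretion, P4HA2 on prolines and PLOD1 and PLOD2 on lysines. P4HA2 read 1893, 1529 and 2146 in weak and 1061, 1607, 1182 and 741 in strong bone lines, and 1194, 1817 and 1548 in weak and 1012, 885, 892 and 837 in strong lung lines. Its differences were -0.72 (SE 0.24, adjusted p = 0.0628) and -0.72 (SE 0.24, adjusted p = 0.0767), and neither passed, although the lung groups did not overlap. The bone difference passed under quantile normalisation (adjusted p = 0.0155), with a common trimmed mean for all arrays (0.0168), with a pseudocount of 64 (0.0414) and without 2274 (0.0289). PLOD1 read 676 to 1212 in the bone lines and 365 to 589 in the lung lines and differed by -0.16 (SE 0.23, adjusted p = 0.717) and -0.10 (SE 0.23, adjusted p = 0.846). PLOD2 read 965 to 1792 in the bone lines and 606 to 1511 in the lung lines and differed by -0.26 (SE 0.28, adjusted p = 0.608) and 0.36 (SE 0.28, adjusted p = 0.486). A second probe set of PLOD2 had the opposite sign in bone lines, at 0.16 (SE 0.30, adjusted p = 0.796).

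**Figure D4:**
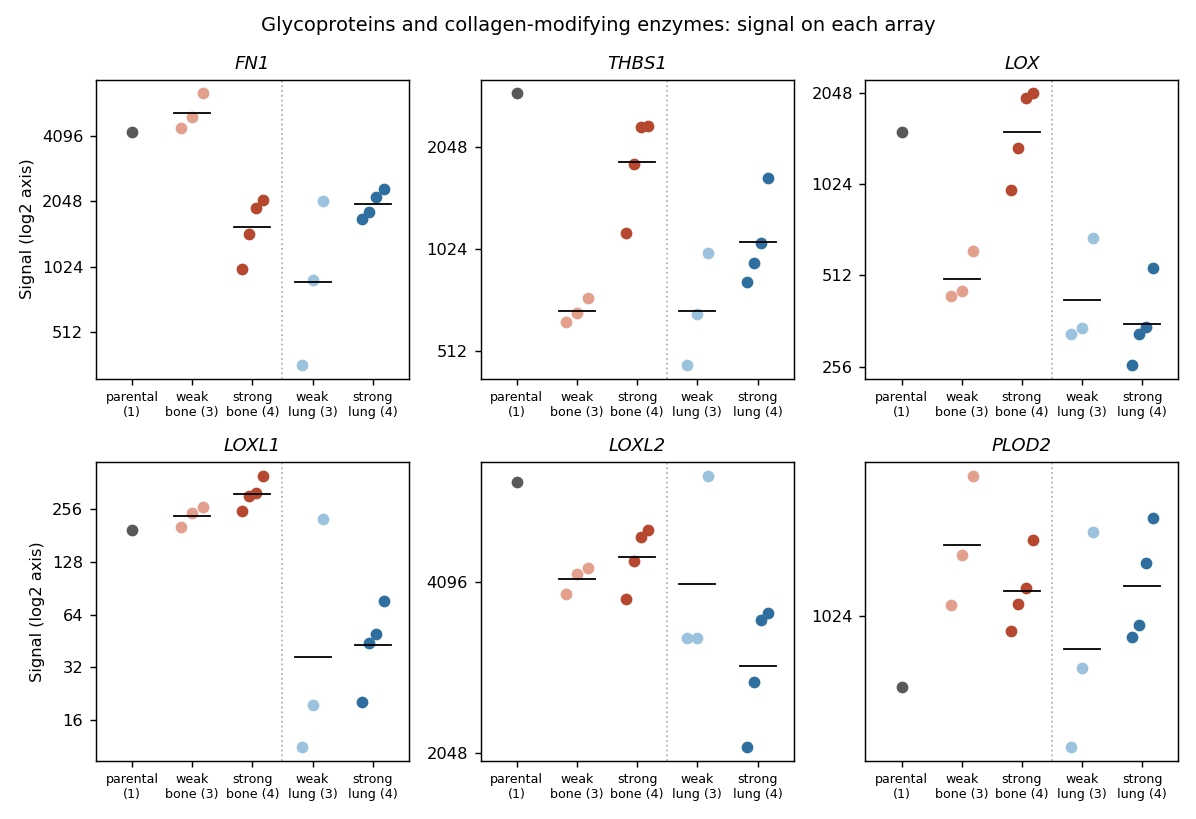
Signal of FN1, THBS1, the 3 lysyl oxidases and PLOD2 on each array (points, log2 axis, arbitrary units), for the parental line and the weak and strong lines, with bars at the geometric mean of a group and a dotted line between the array sets. FN1 is lower and THBS1 and LOX are higher in strong than in weak bone lines, and LOXL2 and PLOD2 overlap between the groups.

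Other genes of the same pathways were taken from lists of collagen folding, basement membrane and receptor genes. Of 13 tested genes for collagen folding, processing and crosslinking, 1 rose and 2 fell in strong bone lines, where 11.6% of all genes passed, and 1 rose and 2 fell in strong lung lines, where 8.83% did. P3H1, a prolyl 3-hydroxylase of collagen, rose in strong bone lines (log2 difference 0.86, SE 0.18, adjusted p = 0.00793). PCOLCE2, an enhancer of procollagen cleavage, fell there (log2 difference -0.94, SE 0.25, adjusted p = 0.0256), as did the lysyl hydroxylase PLOD3 (log2 difference -0.55, SE 0.17, adjusted p = 0.047). PLOD3 had the same difference in lung lines but did not pass there (log2 difference -0.55, SE 0.17, adjusted p = 0.0555). In strong lung lines the procollagen peptidase ADAMTS2 rose (log2 difference 1.24, SE 0.32, adjusted p = 0.0253), and CRTAP, the partner of P3H1 (log2 difference -1.01, SE 0.26, adjusted p = 0.027), and the transglutaminase TGM2 (log2 difference -1.13, SE 0.19, adjusted p = 0.00233) fell. Of 9 other collagens and 4 other basement membrane genes tested, 0 passed in either comparison by limma, with 2 and 2 other collagens and 0 and 0 basement membrane genes at an unadjusted p under 0.05 in bone and lung lines (26.8% and 23.1% of all genes). Of 11 receptors for collagen, laminin and fibronectin, 3 fell in strong bone lines (4.81% of all genes) and 0 passed in strong lung lines (limma; 3 at an unadjusted p under 0.05, against 23.1% of all genes). They were SDC4, a syndecan (log2 difference -1.37, SE 0.20, adjusted p = 0.000958), the laminin-binding integrin subunit ITGB4 (log2 difference -1.59, SE 0.37, adjusted p = 0.0147) and the collagen-binding ITGA2 (log2 difference -0.96, SE 0.28, adjusted p = 0.0381).

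The parental line, on 1 array, was read beside the bone lines without a test. Of the 34 genes it lay above all 7 bone lines for 8, where 15.7% of all genes did, and below all of them for 6, where 10.0% did. THBS1 was at 2954 and COL5A1 at 1106, both above every bone line, so that weak and strong bone lines alike were lower than the parental array. So were COL4A2, at 2457, and LAMB1, at 446. COL6A1, at 1342, lay below every bone line. LOX, at 1524, lay among the strong and above the weak bone lines. FN1, at 4254, lay between the weak and the strong lines. COL7A1, at 177, lay among the weak and above the strong lines.

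In the fit of the ploidy sublines, blocked by line of origin, 0 of the 34 genes passed, where 0.0105% of all genes did (1 of 9540). At an unadjusted p under 0.05 (limma) there were 2 of 34, where 5.35% of all genes were. These were LOXL1 and COL1A2. LOXL1 read 530.3 in the modal-ploid 1833 subline against 337 in its hyper-ploid counterpart, and 139 and 26.1 in those of 4175. It was lower in both hyper-ploid sublines, with a mean difference of -1.25 (SE 0.32, adjusted p = 0.337). COL1A2 read 55.7 and 80.5 in the 1833 pair and 166 and 624 in the 4175 pair. It was higher in both hyper-ploid sublines, by 1.12 (SE 0.33, adjusted p = 0.463), and most of that came from the 4175 pair.

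The sign of the difference was the same in both pairs for 18 of 34 genes and for 4467 of 9540 genes overall. Over 2-fold were 2 of the 34 in the 1833 pair (3.29% of all genes) and 3 in the 4175 pair (5.14%), with no replicate check. In the 1833 pair these were LAMA4 and LOX. LAMA4 differed by -1.25 in the 1833 pair and 0.92 in the 4175 pair, and LOX by -1.20 in the 1833 pair and 0.19 in the 4175 pair, with opposite signs in each case. In the 4175 pair they were COL1A2, LOXL1 and LAMC1, the last of which differed by -0.09 in the 1833 pair and -1.11 in the 4175 pair. Of the genes that passed between strong and weak lines, COL6A1 differed by -0.75 in the 1833 pair and -0.28 in the 4175 pair, COL7A1 by 0.97 in the 1833 pair and -0.25 in the 4175 pair, COL8A1 by -0.45 in the 1833 pair and -0.58 in the 4175 pair and FN1 by -0.17 in the 1833 pair and -0.38 in the 4175 pair.

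**Figure D5:**
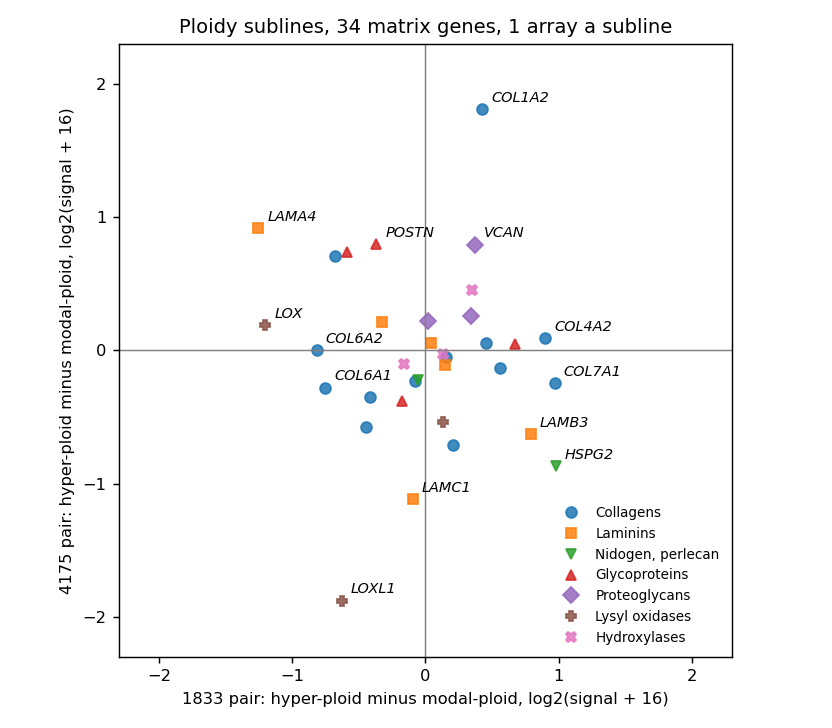
Difference between the hyper-ploid and modal-ploid subline of 1833 (horizontal axis) and of 4175 (vertical axis) for the 34 tested matrix genes, in log2(signal + 16), with 1 array for each subline and markers by gene group. LOXL1 lies low and COL1A2 high in the 4175 pair with the same sign in the 1833 pair, LAMA4 has opposite signs in the pairs, and 18 of 34 genes share their sign.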

How the data were processed

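Arrays had been hybridised with biotin-labelled cRNA by the standard Affymetrix procedure, per the labels' protocols. Software for image analysis and array normalisation was not given in the sources used here. Linear ratios for 22283 probe sets were deposited by the authors. From the values, each ratio is a signal in steps of 0.1 over 1 divisor per probe set in each of 2 array sets (10 and 9 arrays). Signals were recovered for all probe sets within 0.07 steps of a whole number. With shuffled values 0.233% and 0.567% of 3000 probe sets were recovered, but over a shorter search, so these shares are not like for like. The 14 with an implausible divisor were left out. The 2% trimmed mean of recovered signals was 499.6 to 500.4 on 15 arrays and 323 to 361 on the 4 ploidy arrays. A divisor can be out by a whole factor where all signals of a probe set share it. This does not change a ratio within a set.

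Signals were scaled to a common median and used as log2(signal + 16). Probe sets were kept (16308) if 2 or more of the 19 arrays showed them above that array's 40th percentile. Of the platform's probe sets 19071 had 1 gene symbol, 1043 several and 2169 none, and 19059 of the first matched RefSeq (GRCh38.p14). A gene was read from its kept probe set with the highest mean, and other probe sets are given for some of the genes. Fits used R 4.3.3 with limma 3.58.1 (10 residual and 3.83 prior degrees of freedom for the lines, 1 and 10.8 for the ploidy sublines). They were run on simulated data with independent noise for each gene and array, where only the bone comparison had a set criterion. The ploidy block pairs sublines of the same line of origin, as the labels give it. Values in every line are given for genes past the threshold, at least in the comparison in which they passed, and for some other genes. The rest are given as ranges or differences. The genes and lists were chosen with earlier results of these data known. Alternatives were other filters, pseudocounts, scalings, probe set choices, the deposited ratios on the log2 scale, 7 lines alone and each line left out. The number of arrays limits the precision.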

Additional observations from a re-analysis of the deposited data

Results flagged for a closer look

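For 9 of the 34 tested matrix genes the strong-minus-weak difference of bone lines differed from that of lung lines by the limma contrast, where 11.7% of all genes did. The bone difference lay further down by -3.20 for COL6A1, -1.92 for COL6A2, -2.77 for COL6A3, -3.66 for COL7A1, -2.90 for FN1, -2.25 for LAMA4 and -2.0 for LAMA5, and further up by 2.56 for COL8A1 and 1.83 for LOX (log2). With all kept LAMA4 probe sets averaged, the contrast of LAMA4 was -0.27 (adjusted p = 0.59). Single lines stood apart from the other 3 of their group in 2 of 68 groups of 4 examined, where chance gives about 1 in 20. These were line 2268 among the strong bone lines, highest for COL8A1 (gap over range 0.839) and for LAMB3 (0.925), above Dixon's 95% critical value for 4 samples.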

How the results depend on the processing

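Of 26 calls of single genes, 0 changed direction in an alternative. The counts of matrix genes called stayed within 1.5 times of the main count in 118 of 130 recomputations. These 130 include the ploidy counts, where the main count was 0, and such counts say little about stability. The genes lower in strong bone lines were 5 in place of 3 under quantile normalisation and 5 under scaling to a common trimmed mean (added after seeing the data), and those lower in strong lung lines 1 in place of 2 when the 7 lung lines were fitted alone. With 1 line left out, the genes higher in strong bone lines numbered 4 to 4, those lower 1 to 3 (1 without 2296), those higher in strong lung lines 5 to 9 (5 without 4175) and those lower 1 to 3. The 1 was without SCP21, SCP6, 4173, 4175 or 4180. The contrast between bone and lung gave 2 to 4 genes higher (4 without 2269 or SCP26) and 7 to 9 lower. For the ploidy sublines 0 passed with no replicate block, which pairs by line of origin. With either pair alone the count was 0, but that sets 1 array against 1 with each assumed to vary like the line groups, and says nothing about stability. Over all genes, the 1108 bone calls fell to 580 without 2293, 549 without 2295 and 611 without 2296, and the 842 lung calls to 541 without 4173 and 503 without 4175. With the 7 lung lines alone they were 444. The share of higher calls was 58.6% in bone and 37.9% in lung lines, 47.3% and 47.5% with the trimmed mean and 49.7% and 48.9% with quantile normalisation. The trimmed mean moved the median contrast of all genes from 0.03 to -0.10. The causes were not tested. Dim genes (COL8A1, LAMA4, HSPG2, VCAN) are limited by signal over background, which the deposited values do not give.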
